A study of Mus musculus with 28 samples.

Results

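The difference between double knockout and Control newborn mouse lungs was compared with and without antenatal N-acetyl cysteine (NAC). The members are the 16 arrays, of 28 in the series, whose source label is Control, DKO, Control+NAC or DKO+NAC: 3 Control, 5 DKO, 4 Control+NAC and 4 DKO+NAC. DKO lungs, the double knockout of the series title, lack both HRas and NRas, 2 of the small GTPases that pass receptor signals to the ERK kinase cascade. The labels do not give the strain, the alleles or the design of the deletions, and HRas itself was not analysed here. All lungs were whole lungs from postnatal day 0, each array holding RNA of 1 animal, and NAC had been given at 0.5% to the pregnant females. The labels describe Control and Control+NAC by that name alone. The 12 arrays of single knockouts (3 each of HRas-KO, NRas-KO, HRas-KO+NAC and NRas-KO+NAC) were used to estimate the spread and as a comparison. The series title reports that DKO mice die of respiratory distress.

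NAC is deacetylated in cells to cysteine, the limiting building block of glutathione, the main small thiol antioxidant of the cell. A cell can also respond to a change in thiols through NRF2, which switches on glutathione and detoxification enzymes, and through the chaperones of the endoplasmic reticulum. The lung of a newborn changes from a fluid-secreting to an air-breathing organ, and its alveolar type 2 cells begin to secrete surfactant.

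Each value is a log2 signal and each difference is on the log2 scale. The quantity of interest, called the interaction here, is the NAC change in DKO (DKO+NAC minus DKO) minus the NAC change in Control (Control+NAC minus Control). It equals the DKO effect with NAC minus the DKO effect without it. A negative interaction therefore means that the gene fell more with NAC, or rose less, in DKO than in Control. Errors after ± are standard errors of the fit unless SD is given. Adjusted p-values come from limma with Benjamini-Hochberg adjustment over the 22180 genes tested, and a gene was called at an adjusted p under 0.05.

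Of 22180 genes, 86 had a called interaction (0.388%), 26 higher and 60 lower. Interactions of the called genes ran from -1.86 for Rnu3a, a small nucleolar RNA of ribosomal RNA processing, to 1.68 for the microRNA row Mir297a-4. The smallest adjusted p was 0.0125, shared by Rabac1, which binds prenylated Rab GTPases, Dnpep, an aspartyl aminopeptidase, and the olfactory receptor row Olfr1502. These 3, and Mir297a-4, were singled out after their values were seen. The call rests on the spread being estimated from all 28 arrays: with the 16 arrays alone no gene was called, the smallest adjusted p was 0.0547, 2589 genes had an unadjusted p under 0.05 and 69 of the 86 genes had an adjusted p under 0.10. In the 28-array fit 2888 genes had an unadjusted p under 0.05.

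The count also moved with single arrays. It fell to 15 without Control 1, 21 without Control 2, 15 without Control+NAC 1, 26 without Control+NAC 3, 24 without Control+NAC 4, 28 without DKO 5, 18 without DKO+NAC 1 and 40 without DKO+NAC 2. It rose to 148 without DKO 3. With each array centred on its median, 169 genes were called, 13.6% of them higher, against 30.2% of the 86. Of the 53 called genes named here, Rabac1, Dnpep, Rnh1, Phkg2 and Olfr1502 were called whichever of the 16 arrays was left out. Those named genes were all chosen after their values were seen. All 53 kept their direction in every alternative in which they were measured. The alternatives reuse arrays on which the 53 were called, so this stability is a description and not a separate test.

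The arrays differed in ways that the groups do not explain. Nras fell by 0.61 in DKO against Control without NAC (adjusted p = 0.00183) and its estimate with NAC was -0.58, not called. DKO+NAC 4 read 8.08, as high as the lowest Control array at 8.07, against 7.56 to 7.74 on the other 3 DKO+NAC arrays. Xist, transcribed from the inactive X chromosome of females, was at 9.92 or above on 1 of 3 Control, 2 of 5 DKO, 2 of 4 Control+NAC and all 4 DKO+NAC arrays, and at 4.33 or below on the others. The skeletal muscle list was highest on DKO 1, with a mean deviation from the 16-array average of 1.22, and the small RNA list on DKO 3, with 0.74. The liver list varied most between arrays, from -1.38 on Control+NAC 4 to 1.62 on DKO 5, with Control+NAC 2 at 1.30. The stratified epithelium list was also highest on DKO 5, at 0.81. Neither of these lists was used as a covariate. With Xist as a covariate 57 genes were called, with the muscle lists 67, with the small RNA rows 13, and without DKO 1 and DKO 3 together 191. Animal codes in the titles start alike within small sets whose meaning the labels do not give: none spans the untreated and NAC arms, and those of the untreated DKO arrays occur in no other group, so such sets and the groups cannot be told apart. Keeping only NAC arrays whose code start occurs in both genotypes left 3 called genes. That setting kept every Control+NAC array and dropped DKO+NAC 1 and DKO+NAC 2, so it also had fewer arrays. Of the lung markers, Sftpc, the surfactant protein of alveolar type 2 cells, lay between 12.99 and 13.23 on all 16 arrays. Sftpb, Scgb1a1 and Ager read 11.16 or above and Nkx2-1 9.17 or above, but Hopx only 6.07 to 7.18. Scgb1a1 was not level: it read 12.52 to 12.67 in Control and 11.16 to 11.62 in Control+NAC. In DKO it read 11.65 to 12.63 and in DKO+NAC 11.24 to 12.25.

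Seen as 2 genotype effects, the interaction sets 850 called genes without NAC (3.83%; 550 higher and 300 lower in DKO) against none with NAC (0%, limma; 2116 genes at an unadjusted p under 0.05, smallest adjusted p 0.121). Without Control+NAC 2 the count with NAC was 14, and without Control 1 or Control 2 the count without NAC was 334 or 321. The NAC arrays did not enter the untreated difference of the 850 genes, although they did enter the spread by which these were called, and with the 16 arrays alone 550 were called. Of the 550 genes higher in untreated DKO, the median difference was 0.54 without NAC and 0.02 with it, and 304 had an estimate above 0 with NAC. Of the 300 lower genes the medians were -0.55 and -0.04, and 175 were below 0 with NAC. The untreated medians are those of genes chosen for a large difference there and so are inflated by the choice. Of the 850 genes, 73 had a called interaction, against 0.388% of all genes. The interaction contains the untreated difference, which favours this overlap.

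Seen as 2 NAC effects, 2706 genes changed in DKO (12.2%; 1273 higher, 1433 lower) and 3002 in Control (13.5%; 1743 higher, 1259 lower). Without Control 1 or Control 2 the count in Control was 1655 or 1319. The NAC comparisons in DKO and Control share no arrays, but they share the estimate of the spread. Some Control+NAC and DKO+NAC arrays also have the same code start, and none of these occurs in the untreated arrays. They had 1151 called genes in common, 42.5% of the DKO list and 38.3% of the Control list, 1137 of them in the same direction and 14 in opposite directions. Most genes called in both comparisons thus changed in the same direction. Over all genes, called or not, the estimates had the same sign in 63.6%. Among the 86 interaction genes the estimates had opposite signs in 71 and the same sign in 15. These genes were called for a large gap between the NAC changes, which favours opposite signs, so this count is a description.

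**Figure D1:**
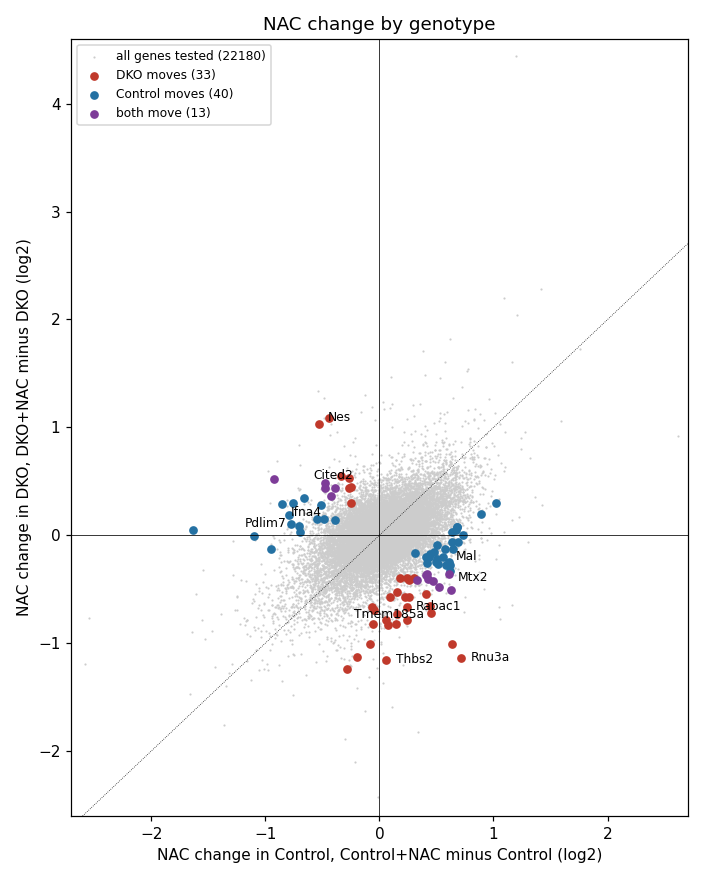
Each point is a gene, with its NAC change in Control on the horizontal axis and in DKO on the vertical axis (log2, limma estimates). Grey points are all 22180 genes; coloured points are the 86 called interaction genes by class, 33 where only the change in DKO was called (DKO moves), 40 where only that in Control was called (Control moves) and 13 with both called, all in the quadrants of opposite sign (both move); on the dotted diagonal the NAC changes are equal.

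The 86 genes were separated by which NAC change was itself called. In 33 genes the DKO arrays moved and the Control arrays were not called, in 40 the reverse held, in 13 both were called, and in none was neither called. When a gene was instead put in a class only if its change in 1 genotype was at least 2 times that in the other, 19 genes fell where DKO moves, 34 where Control moves and 33 where both do. A missed call in 1 genotype does not show that the gene did not change there, so the classes describe calls. The class counts moved with left-out arrays as the total did: DKO moves ranged from 7 to 76, Control moves from 3 to 57 and both move from 2 to 16.

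Where DKO moves, 26 of 33 genes had a lower interaction and 7 a higher one. The 26 stood higher in untreated DKO than in Control by a median of 0.83 and fell with NAC in DKO by a median of 0.70, to a median difference of -0.08 from Control+NAC. The interaction by which the genes were chosen contains these same differences, so the medians follow in part from the choice. On 28 of the 33 genes the DKO and DKO+NAC arrays did not overlap. Overlap between these groups was likewise absent for 2283 of all 22180 genes. The 33 were placed here by a called change between those same arrays, so this separation follows largely from the choice.

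Rabac1 (probe set 17487796) read 9.94, 9.62, 9.998, 9.64 and 9.64 on the 5 DKO arrays and 8.98, 9.36, 9.12 and 8.98 on the DKO+NAC arrays. The Control arrays read 8.71, 8.61 and 8.52 and the Control+NAC arrays 8.81, 8.79, 9.05 and 8.74. All untreated DKO arrays lay above every other array of the 4 groups, and DKO+NAC still overlapped the top of Control+NAC. The NAC change was -0.66 ± 0.09 in DKO and 0.24 in Control, with an interaction of -0.90 ± 0.14 (adjusted p = 0.0125).

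Dnpep read 9.11, 8.81, 8.74, 9.07 and 8.93 in DKO and 7.67, 7.90, 8.01 and 7.67 in DKO+NAC. Control read 8.17, 8.04 and 7.96, and Control+NAC 7.98, 7.76, 7.94 and 7.76. The untreated DKO arrays again stood apart from the other 3 groups, which overlapped one another. The interaction was -0.93 ± 0.15 (adjusted p = 0.0125). Rnh1 and Phkg2 were likewise chosen after their values were seen. Rnh1, the inhibitor of pancreatic-type ribonucleases, also had DKO highest, at 9.58, 9.75, 9.41, 9.65 and 9.87 against 8.72, 8.85, 8.90 and 8.80 in DKO+NAC, with an interaction of -0.91 ± 0.15 (adjusted p = 0.0171). Phkg2, a catalytic subunit of phosphorylase kinase, which activates glycogen breakdown, fell by 1.01 ± 0.10 with NAC in DKO, against -0.09 in Control.

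Thbs2 encodes thrombospondin 2, a matrix protein that limits vessel growth. It read 8.28, 7.26, 7.74, 7.54 and 7.66 in DKO and 6.02, 6.60, 6.76 and 6.78 in DKO+NAC. The Control arrays read 6.62, 6.71 and 6.88, and the Control+NAC arrays 6.97, 6.82, 6.63 and 6.77. All DKO arrays were above all others. Thbs2 fell by 1.16 ± 0.15 with NAC in DKO and differed by 0.06 in Control (interaction -1.22 ± 0.23, adjusted p = 0.024). Cd109, a membrane protein that binds TGF-beta and dampens its signal, had an interaction of -1.17 ± 0.26 (adjusted p = 0.042). Its DKO arrays, at 7.28, 7.19, 6.62, 7.24 and 7.66, overlapped those of DKO+NAC, at 6.27, 6.17, 6.69 and 6.78, only through DKO 3. These were the called genes among 26 measured members of the TGF-beta and BMP list, whose median interaction was 0.08 against -0.01 over all genes.

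Marchf5, a ubiquitin ligase of the mitochondrial outer membrane, read 9.73, 9.75, 9.49, 9.76 and 10.08 in DKO and 9.07, 8.86, 8.85 and 8.98 in DKO+NAC. Its Control arrays read 8.69, 8.95 and 8.98 and its Control+NAC arrays between 8.86 and 9.12. DKO was separate from all 3 other groups (interaction -0.96 ± 0.17, adjusted p = 0.0218). Got1, the cytosolic aspartate aminotransferase, had the largest NAC fall of the class in DKO, by 1.24 ± 0.14, and an estimate of -0.29 in Control. Fh1 (fumarate hydratase) and Iscu (the scaffold for iron-sulfur cluster assembly), both chosen after their values were seen, had interactions of -0.70 and -0.64. Tmem185a, Thoc3 and Fam98b, also named by size, had interactions of -1.10, -1.02 and -0.96. The DKO arrays of Tmem185a were split by DKO 3, which at 7.29 lay under the DKO+NAC arrays while the other 4 DKO arrays were between 8.10 and 8.56.

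Hspa5 encodes BiP, the chaperone of the endoplasmic reticulum whose transcription marks the unfolded protein response. It read 8.78, 8.75, 8.60, 8.80 and 8.72 in DKO and 8.10, 8.14, 8.12 and 8.46 in DKO+NAC. Control arrays read 8.49, 8.24 and 8.26, and Control+NAC arrays 8.58, 8.44, 8.49 and 8.45. DKO was above the other groups, and 3 of 4 DKO+NAC arrays were below every Control and Control+NAC array. The NAC change was -0.52 ± 0.09 in DKO and 0.16 in Control, with an interaction of -0.68 ± 0.13 (adjusted p = 0.024).

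Hspa5 was the only called gene among 22 measured genes of the unfolded protein and ATF4 list, whose median interaction was -0.00. Dnajb9, a co-chaperone induced by the same response, had an estimate in the other direction, 0.82 (adjusted p = 0.0992), and Creld2 one of -0.41 (adjusted p = 0.189). The promoter of Hspa5 is shown because it holds the textbook element of this response. The stretch lies at chr2:34772005-34772063 on the plus strand (RefSeq, GRCm38.p6), with the element in capitals (CCAAT, any 9 bases, then CCACG), searched on both strands.
Hspa5: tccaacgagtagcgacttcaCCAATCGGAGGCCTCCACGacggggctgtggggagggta
The element was found in 39 of 32851 promoter windows of 300 bases (0.119%), and among list members with a window in 4 of 20: Hspa5, Hsp90b1, Creld2 and Calr. Of 68 called genes with a window, only Hspa5 had it. A match describes the letters of the window and is not a measured site.

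The 7 genes raised where DKO moves started low in untreated DKO, by a median of 0.77 below Control, which their choice by the interaction favours. Nes, the intermediate filament protein nestin, read 7.02, 6.93, 6.14, 7.25 and 7.29 in DKO and 8.30, 8.03, 7.97 and 7.51 in DKO+NAC. The Control arrays read 9.29, 8.23 and 8.17 and the Control+NAC arrays 8.10, 8.02, 8.05 and 7.98. DKO lay below the other 3 groups, and Control 1 lay far above its group (interaction 1.56 ± 0.35, adjusted p = 0.0463). Phlda3, a p53 target that restrains AKT, read 7.38, 7.28, 7.15, 7.34 and 7.46 in DKO and 7.78, 7.97, 7.69 and 7.65 in DKO+NAC, with no overlap. Its Control arrays were at 7.91, 7.92 and 7.85, and Control+NAC at 7.73, 7.70, 7.89 and 7.26 (interaction 0.70 ± 0.15, adjusted p = 0.0387). Phlda3 was the only called member of 17 measured p53 targets, of which 14 had an estimate below 0. Zfp781, a zinc finger gene, had an interaction of 1.53 and Scgb1b3, a secretoglobin, one of 0.88. Mir764, also chosen after its values were seen, was the remaining higher microRNA row (interaction 0.55, adjusted p = 0.0435). The row measures its gene and not the mature RNA. The mature forms are printed to identify it, from RefSeq on chromosome X of GRCm38.p6, with the seed (bases 2 to 8) in capitals.
miR-764-5p: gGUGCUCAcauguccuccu
miR-764-3p: aGGAGGCCauaguggcaacugu

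**Figure D2:**
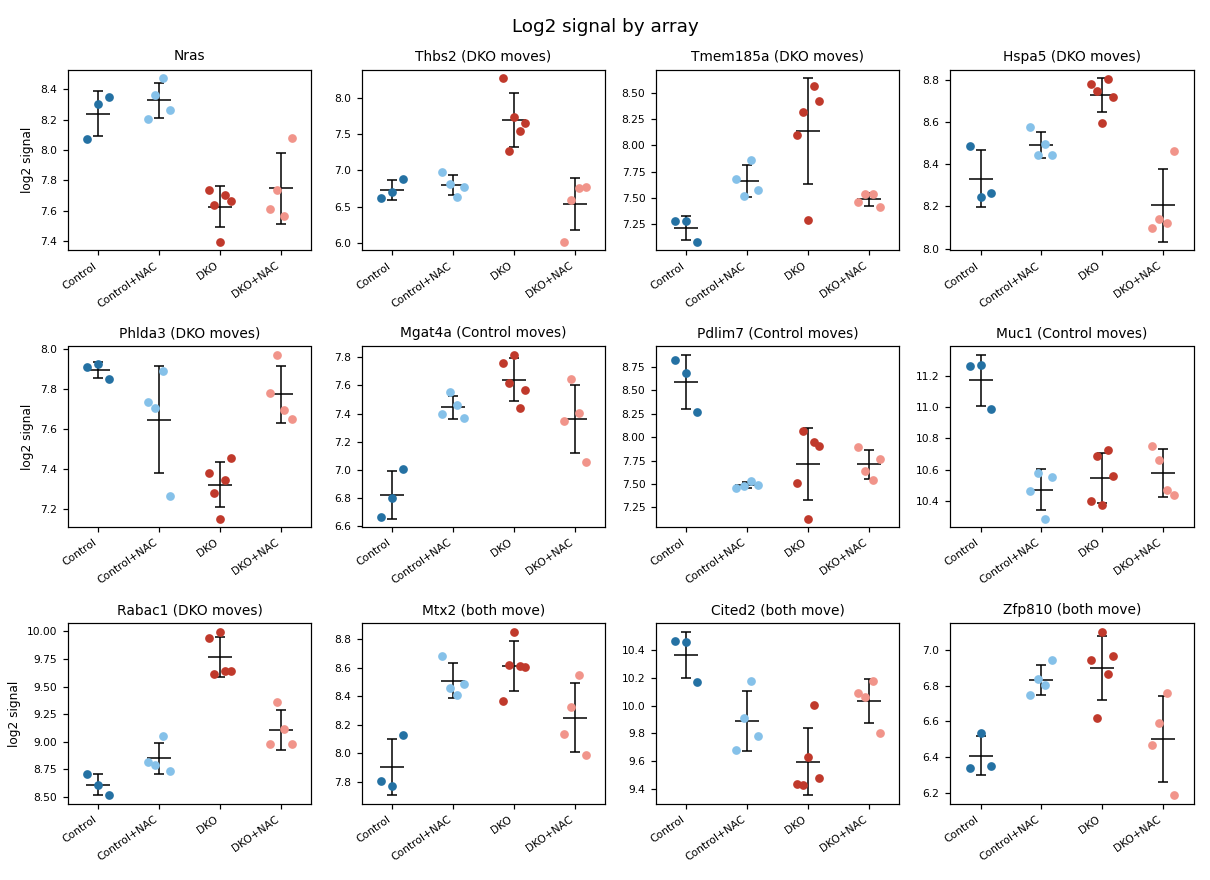
Log2 signal on each array (points) with the mean and SD (bars) in Control, Control+NAC, DKO and DKO+NAC, for Nras and 11 called interaction genes with their class. The 5 DKO arrays of Thbs2, Hspa5 and Rabac1 lie above all others, the 3 Control arrays of Mgat4a, Pdlim7 and Muc1 lie apart from Control+NAC, and Nras is below every Control and Control+NAC array on all DKO and DKO+NAC arrays but DKO+NAC 4.

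Where Control moves, 26 of 40 genes had a lower interaction and 14 a higher one. The 26 rose with NAC in Control by a median of 0.60, and their median NAC change in DKO was -0.16. The 14 fell in Control by a median of 0.73, with a median of 0.15 in DKO. Control and Control+NAC arrays did not overlap for any of the 40 genes, as for 5655 of all 22180 genes. The 40 were placed here by a called change between those same arrays, so this separation follows largely from the choice. In 31 of the 40, DKO already differed from Control by a call without NAC, against 3.83% of all genes. The median DKO effect was 0.54 without NAC and -0.14 with it in the 26 genes, and -0.62 and 0.20 in the 14. The interaction by which the genes were chosen contains these same differences, so the count and medians follow in part from the choice.

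Mgat4a, a Golgi enzyme that branches N-glycans, read 6.67, 6.80 and 7.005 in Control and 7.39, 7.55, 7.46 and 7.37 in Control+NAC. It read 7.76, 7.62, 7.82, 7.44 and 7.57 in DKO and 7.35, 7.65, 7.40 and 7.06 in DKO+NAC. Control was below all other groups, which overlapped (interaction -0.90 ± 0.16, adjusted p = 0.0207). Mff, the receptor on mitochondria for the fission enzyme DRP1, also had Control lowest, at 8.08, 8.32 and 8.54, with Control+NAC at 8.84, 9.06, 8.82 and 8.98. Its DKO arrays were between 9.10 and 9.43 and its DKO+NAC arrays between 8.88 and 9.10 (interaction -0.86 ± 0.17, adjusted p = 0.0245). Slc25a46, another outer membrane protein of mitochondria, rose by 0.64 in Control with an estimate of -0.13 in DKO.

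Gtf3c6, a subunit of the RNA polymerase III factor TFIIIC, had the largest lower interaction of the class, -0.95 ± 0.20. Hspa13, an HSP70 family member chosen after its values were seen, had the largest rise in Control, 1.02, from 6.39, 6.44 and 6.59 to 7.58, 7.40, 7.63 and 7.37. In DKO its estimate was 0.30 (adjusted p = 0.0513), so both genotypes had the same sign. Mal, Ssbp2, Exoc5 and Etaa1, named by size, had interactions between -0.86 and -0.75. Sec23a, a coat protein of vesicles that leave the endoplasmic reticulum, also chosen after its values were seen, had one of -0.63.

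Among the 14 raised, Pdlim7, an adaptor of the actin cytoskeleton, read 8.82, 8.68 and 8.27 in Control and 7.46, 7.48, 7.54 and 7.49 in Control+NAC. It read 7.51, 8.07, 7.13, 7.95 and 7.91 in DKO and 7.90, 7.64, 7.54 and 7.76 in DKO+NAC. Only the Control arrays stood apart (interaction 1.09 ± 0.22, adjusted p = 0.0277). Muc1 encodes a membrane mucin carried by the alveolar epithelium. It read 11.26, 11.27 and 10.98 in Control and 10.47, 10.58, 10.29 and 10.56 in Control+NAC. In DKO it read 10.40, 10.69, 10.37, 10.72 and 10.56 and in DKO+NAC 10.75, 10.66, 10.47 and 10.44. The NAC change was -0.70 in Control and 0.03 ± 0.10 in DKO (interaction 0.73 ± 0.15, adjusted p = 0.0311).

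Muc1 was the only called gene among 19 measured alveolar type 2 markers, of which 15 had an interaction above 0, with a median of 0.21. The median of this list was 0.01 without DKO 1 and DKO 3, its lowest arrays, and its part in the Muc1 result was not tested. In whole lung, fewer cells of a type and less RNA per cell cannot be told apart. S100a11, a calcium-binding protein, read 11.15, 11.14 and 10.82 in Control against 9.87 to 10.26 in Control+NAC, 9.97 to 10.39 in DKO and 9.98 to 10.30 in DKO+NAC. Gata2, a transcription factor of endothelial and blood cells, read 9.90, 10.09 and 9.38 in Control against 8.76 to 9.20 over the other 3 groups. Both thus had Control alone high, with interactions of 0.83 and 0.88. Ifna4, an interferon alpha gene of a family with near-identical copies that the probes may not separate, had one of 1.15 ± 0.22. Cstad, Gga1 and Hipk4 followed with 0.98, 0.80 and 0.64.

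In all 13 genes where both were called, the NAC changes were opposite: 8 rose in Control and fell in DKO, and 5 did the reverse. The choice of genes by a large gap favours such opposite signs. Mtx2, part of the import machinery of the mitochondrial outer membrane, read 7.80, 7.77 and 8.13 in Control and 8.68, 8.45, 8.40 and 8.49 in Control+NAC. It read 8.37, 8.62, 8.85, 8.61 and 8.61 in DKO and 8.13, 8.32, 8.55 and 7.99 in DKO+NAC. The Control groups were separate and the DKO groups overlapped. The change was 0.61 in Control and -0.36 ± 0.11 in DKO (interaction -0.97 ± 0.17, adjusted p = 0.0218).

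Cep85l, a centrosomal protein, changed by 0.62 in Control and by -0.50 in DKO. Its arrays read 7.24, 7.98 and 7.85 in Control, 8.25, 8.39, 8.08 and 8.54 in Control+NAC, 8.54, 8.75, 8.77, 8.49 and 8.69 in DKO, and 7.91, 8.01, 8.27 and 8.39 in DKO+NAC. Neither pair of groups overlapped. Rgs10, which speeds the switching off of G proteins, changed by 0.52 and -0.47, with overlapping arrays in both genotypes. Prim2 (a primase subunit), Zfp810, Bcas2 (a splicing factor), Ubr7 and Snx4 (endosome sorting) had interactions between -0.89 and -0.74.

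Cited2, a coregulator that competes with HIF-1 for the p300 coactivator, went the other way. It read 10.46, 10.46 and 10.17 in Control, 9.68, 9.91, 10.18 and 9.79 in Control+NAC, 9.44, 9.43, 9.63, 10.01 and 9.48 in DKO, and 10.09, 10.06, 10.18 and 9.81 in DKO+NAC. In each genotype the groups overlapped by 1 array on either side (interaction 0.91 ± 0.21, adjusted p = 0.0499). Krtap5-4 had an interaction of 0.96 at a mean level of 5.81, close to the median level of 5.74 over all genes.

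The 2 directions also differed in signal. Of the 26 genes with a higher interaction, 12 had a mean level under 6, against 4 of the 60 with a lower one and 54.1% of all genes. Of the 86 genes, 74 were annotated as protein coding. The 16 dim genes include 2 olfactory receptor rows and 2 microRNA rows.

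The single knockouts give the NAC change of the same genes in animals that did not enter the interaction estimate, although they did enter the spread by which the genes were called. In them 4360 genes changed with NAC (19.7%). Where Control moves, 34 of 40 genes were called in the single knockouts, 33 of them in the direction of Control. Where DKO moves, 5 of 33 were called, and where both move, 8 of 13, all 8 in the direction of Control. Over all 86 genes the single knockout change was nearer to that of Control than to that of DKO in 82, against 60.7% of all genes. By genotype it was nearer to Control in 81 genes in HRas-KO and in 73 in NRas-KO. Over all 22180 genes it was nearer to Control in 14190 in HRas-KO and in 11802 in NRas-KO, the same order. The genes had been chosen for a large gap between Control and DKO, so these counts are a description. All untreated single knockout arrays but HRas-KO 1 had a code start found in untreated Control, and none had one found in untreated DKO. NRas-KO+NAC 1 and NRas-KO+NAC 2 shared code starts with DKO+NAC 2 and DKO+NAC 1 and with no Control+NAC array. Nearness by genotype and by code start was thus not separated.

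Median NAC changes of the 26 lower genes where DKO moves were 0.17 for Control and 0.16 for HRas-KO, against 0.00 for NRas-KO and -0.70 for DKO. For the 26 lower genes where Control moves they were 0.60, 0.51, 0.40 and -0.16. For the 14 higher genes of that class they were -0.73, -0.67, -0.49 and 0.15. In these medians HRas-KO lay next to Control, NRas-KO lay between HRas-KO and DKO, and DKO stood apart. The estimates for Pdlim7 were -1.10 (Control), -1.03 (HRas-KO), -0.91 (NRas-KO) and -0.00 (DKO). Those for Muc1 were -0.70, -0.68, -0.64 and 0.03 in the same order. Whether HRas-KO and NRas-KO differ from each other was not tested, and genotype and code start were not separated here either.

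**Figure D3:**
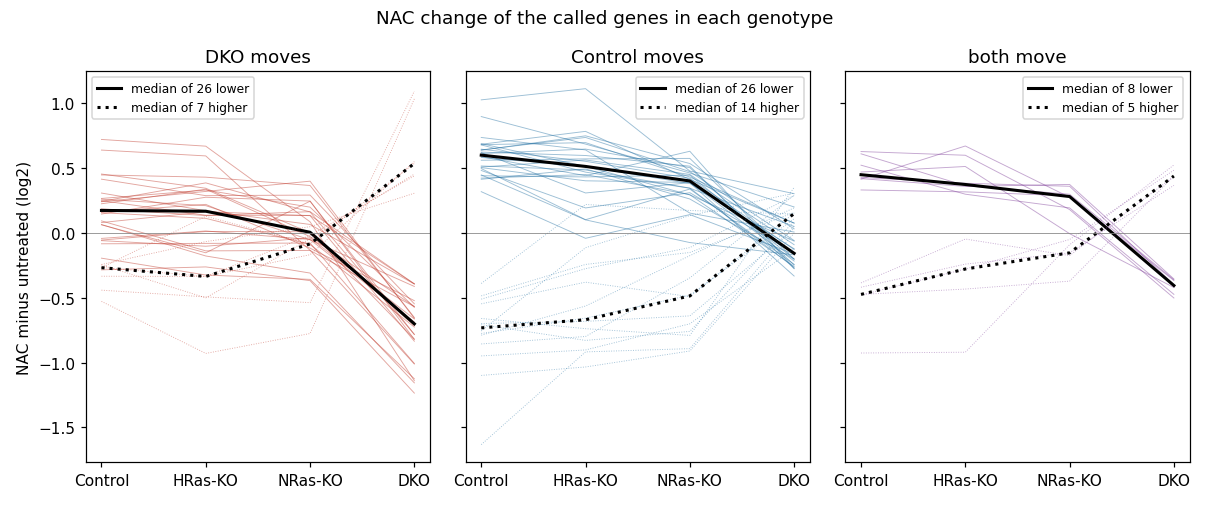
NAC change (NAC minus untreated, log2) of the 86 called genes by genotype (Control, then HRas-KO, NRas-KO, DKO), in 3 panels by class; thin lines are genes, and thick lines are medians of the genes with a lower (solid) or higher (dotted) interaction. The medians of the 26 lower genes where Control moves are 0.60, 0.51, 0.40 and -0.16 from left to right; the genes were chosen for the gap between the first and last positions.

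Groups of genes were read by counts and medians beside those of all genes, of which 13.0% had an unadjusted interaction p under 0.05. Of 56 lists, 50 had no called member. Apart from the small RNA and microRNA rows, 5 of 926 listed genes were called, against 86 of all 22180. With so few genes called, a list without a called member says little. The interferon response list had none called of 31 measured genes, but 14 had an unadjusted p under 0.05, all higher, 29 of 31 estimates were above 0, and the median was 0.44. Without NAC, 15 of the 31 were called lower in DKO, against 300 of all 22180 genes. The list median was -0.55, and with NAC the median DKO effect was -0.05. With NAC 5 of the 31 were called higher in DKO (median 0.27), against 1273 of all genes. In Control 4 were called lower (median -0.25), against 1259 of all genes.

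Ifitm3, a membrane protein that blocks virus entry, came closest to a call. It read 11.43, 11.35 and 11.02 in Control, 10.48, 10.21, 10.24 and 10.32 in Control+NAC, 10.67, 10.59, 10.29, 10.74 and 10.29 in DKO, and 10.41, 10.72, 10.48 and 10.12 in DKO+NAC. Only Control stood apart (interaction 0.87 ± 0.20, adjusted p = 0.0505). Bst2 (tetherin) read 6.57, 7.17, 5.68, 7.54 and 6.95 in DKO, overlapping DKO+NAC at 7.38, 7.88, 7.92 and 7.65 (interaction 1.36 ± 0.39, adjusted p = 0.108). Its Control arrays were at 8.83, 8.57 and 8.62 and its Control+NAC arrays between 8.02 and 8.45, each group above both DKO groups. Oas2, a sensor of double-stranded RNA, had an interaction of 1.02 (adjusted p = 0.0696) and Stat2, which carries the interferon signal to the nucleus, one of 0.85 (adjusted p = 0.118). The list's mean on Control 1 was 0.65 against 0.21 and 0.22 on the other 2 Control arrays, and its median interaction without Control 1 was 0.38.

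Promoter stretches of 3 of these genes are shown because they hold the interferon-stimulated response element (GAAA, any 2 bases, then GAAA, in capitals, on either strand). They come from RefSeq on GRCm38.p6: Ifitm3 at chr7:141010696-141010762 on the minus strand, Bst2 at chr8:71537567-71537622 on the minus strand and Stat2 at chr10:128270256-128270305 on the plus strand.
Ifitm3: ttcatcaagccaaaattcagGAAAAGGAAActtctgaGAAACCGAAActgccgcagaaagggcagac
Bst2: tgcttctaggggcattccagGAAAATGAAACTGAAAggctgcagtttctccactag
Stat2: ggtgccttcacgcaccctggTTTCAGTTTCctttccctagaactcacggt
The Ifitm3 stretch holds 2 matches, the Bst2 stretch 2 that overlap, and the Stat2 stretch 1 on the opposite strand. The element was found in 3.44% of 32851 promoter windows and in 15 of the 22 list members with a window. Among 68 called interaction genes with a window it was found in 2, Ifna4 and Olfr1502, against 3.87% of all tested genes with one.

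Cell cycle genes had the opposite sign. None of 34 was called, 13 had an unadjusted p under 0.05, all lower, and 31 of 34 estimates were below 0, with a median of -0.40. Rrm1, the large subunit of ribonucleotide reductase, had an interaction of -0.89 ± 0.21 and Kif20a, a mitotic kinesin, one of -0.69 ± 0.16, both with an adjusted p of 0.0544. The list's median difference of DKO from Control was 0.01 without NAC and -0.37 with it, with 0 members called in either arm. With NAC 5 of the 34 were called higher in Control (list median 0.335), against 1743 of all 22180 genes. In DKO 1 was called higher and 2 lower with NAC (list median -0.11), against 1273 and 1433 of all genes. DKO+NAC 1 had the lowest list mean, -0.50, and Control+NAC 1 the highest, 0.49. Without them the median interaction was -0.25 and -0.31 respectively, and with NAC arrays of shared code starts alone it was -0.18.

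Genes of cholesterol synthesis had a median interaction of -0.44, with none of 16 called, 7 at an unadjusted p under 0.05 and 14 estimates below 0. Hmgcs1, which makes the precursor of mevalonate, changed by 0.99 in Control and by 0.41 in DKO (interaction -0.57, adjusted p = 0.161). DKO 1 and DKO 3 were the highest untreated arrays of this list, at 0.36 and 0.23, and the median was -0.24 without them and -0.18 with the small RNA covariate. The small RNA list had 2 called genes of 84, Rnu3a and Snord104, 37 lower and 3 higher at an unadjusted p under 0.05, and a median of -0.55. Rnu3a read 9.07, 8.44, 9.68, 7.48 and 8.34 in DKO and 7.32, 7.54, 7.63 and 7.36 in DKO+NAC, overlapping through DKO 4. Its Control arrays, at 6.91, 6.57 and 5.88, overlapped those of Control+NAC, at 7.20, 6.82, 7.38 and 7.28.

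The list of glutathione and NRF2 genes, the pathway NAC feeds, had none of 30 called and a median of -0.12, with 5 lower and 2 higher at an unadjusted p under 0.05. Gsta4, a glutathione transferase, read 8.58, 8.92, 8.59, 9.17 and 9.02 in DKO and 8.01, 7.98, 8.40 and 7.78 in DKO+NAC, without overlap. Its Control arrays were at 8.32, 8.39 and 8.63 and its Control+NAC arrays between 8.34 and 8.57 (interaction -0.82 ± 0.21, adjusted p = 0.0775). Nqo1, the standard NRF2 target, read 5.30 to 5.87 in DKO and 4.92 to 5.13 in DKO+NAC (interaction -0.60, adjusted p = 0.121), at a level below the median gene. Both had their highest group mean in untreated DKO.

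The RAS to ERK cascade list had none of 21 called, 1 at an unadjusted p under 0.05 and a median of 0.01. That 1 was Rasgrp4, a Ras guanine nucleotide exchange factor, with an interaction of 0.74 ± 0.17 (adjusted p = 0.0516). Of the themes in the series title, sphingolipid metabolism had none of 42 called, 11 lower at an unadjusted p under 0.05 and a median of -0.13, and the respiratory chain none of 81 called, 11 lower and 4 higher, and a median of -0.07. Cers5, a ceramide synthase, had the smallest adjusted p of the sphingolipid and respiratory chain lists, 0.0696, with an interaction of -0.63. Those themes were reported from these arrays, so their direction is not independent evidence.

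**Figure D4:**
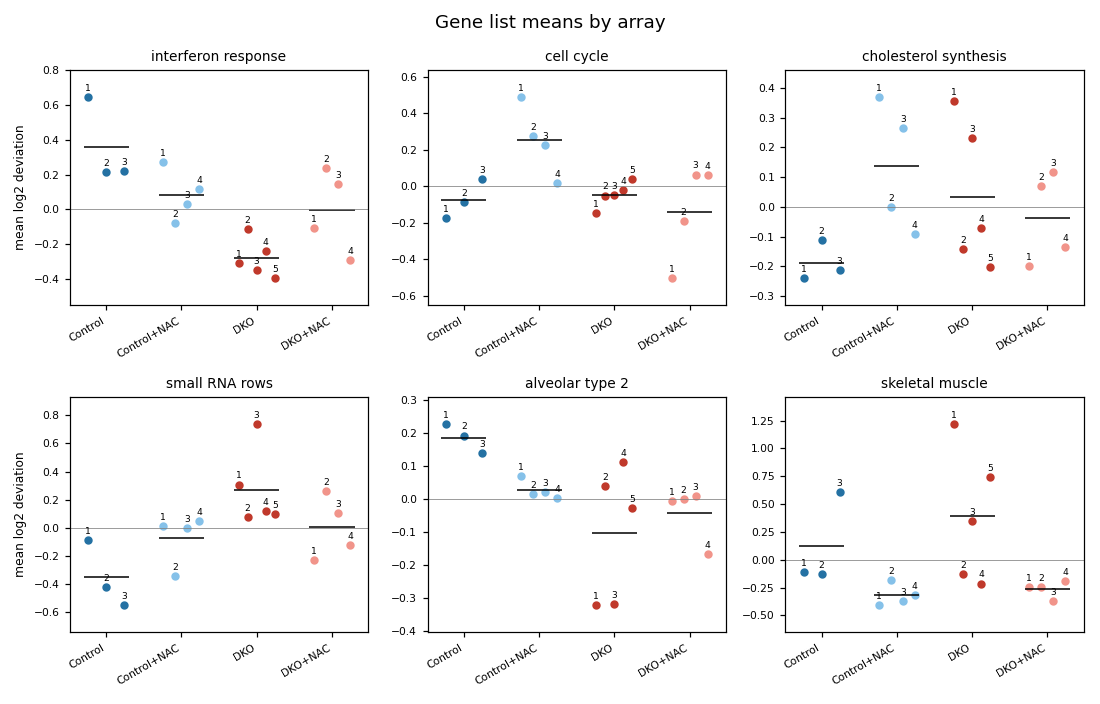
Mean log2 deviation from each gene's average over the 16 arrays, for 6 gene lists, by array in Control, Control+NAC, DKO and DKO+NAC; the number is the replicate and the line is the group mean. Interferon genes have their lowest group mean in DKO and are highest on Control 1, cell cycle genes are high on 3 of 4 Control+NAC arrays, and DKO 1 and DKO 3 are the lowest alveolar type 2 arrays, while DKO 3 is the highest small RNA array.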

How the data were processed

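The authors deposited log2 values, 1 per probe set and array, made with RMA and affy per the submitters' processing notes; versions, and whether all arrays were normalized together, are not given in the sources used here. Medians per array ran from 5.25 to 5.41. Precision is limited by how many arrays each group has. Of 41345 probe sets, 23521 had 1 gene symbol, 1814 several and 16010 were unlisted; the brightest stood for a gene, which left 22180. limma 3.58.1 (R 4.3.3, lmFit, eBayes) fitted 8 group means to all 28 arrays, with 20 residual degrees of freedom, and was tested on simulated data. The simulated noise was independent between arrays, so that check does not cover code-start, Xist or tissue differences and lends the calls no support. Source labels set the groups, although a shared treatment note names 3 samples as given NAC against 14 by source label. Probe sets of small RNA, microRNA and receptor families may read near-identical copies. Named genes are Nras, in each class the 8 most raised and 8 most lowered genes without predicted, microRNA, Snor, olfactory, Xist and Y-linked genes, 4 members with the smallest p of each list described, and, chosen after their values were seen, Rabac1, Dnpep, Rnh1, Phkg2, Hspa13, Sec23a, Tfg, Snord104, Lgmn, Fh1, Iscu, Mir764, Mir297a-4 and Olfr1502. Deviations of same-numbered arrays correlated above 0.1 in all 3 pairs of Control and DKO (0.15 to 0.26), but in 8 of 21 pairs over the 4 groups. Members and lists were chosen with earlier results of these data known. Of 872 written list genes 812 were measured.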

Additional observations from a re-analysis of the deposited data

Results flagged for a closer look

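The NAC change of 53 genes named in the report differed between DKO and Control by a test of the difference itself (limma interaction, adjusted p under 0.05), given as DKO minus Control on the log2 scale. With the 16 arrays alone none of them was called, so the size of each value is given with that limit. The values below 0 where DKO moves were -1.86 for Rnu3a, -1.22 for Thbs2, -1.17 for Cd109, -1.10 for Tmem185a, -1.02 for Thoc3, -0.96 for Marchf5, -0.96 for Fam98b, -0.95 for Got1, -0.68 for Hspa5, -0.90 for Rabac1, -0.93 for Dnpep, -0.91 for Rnh1, -0.92 for Phkg2, -0.84 for Tfg, -1.65 for Snord104, -0.60 for Lgmn, -0.70 for Fh1, -0.64 for Iscu. Those above 0 where DKO moves were 1.56 for Nes, 1.53 for Zfp781, 0.88 for Scgb1b3, 0.70 for Phlda3, 0.55 for Mir764. The values below 0 where Control moves were -0.95 for Gtf3c6, -0.90 for Mgat4a, -0.86 for Mal, -0.86 for Mff, -0.78 for Ssbp2, -0.77 for Slc25a46, -0.76 for Exoc5, -0.75 for Etaa1, -0.72 for Hspa13, -0.63 for Sec23a. Those above 0 where Control moves were 1.15 for Ifna4, 1.09 for Pdlim7, 0.98 for Cstad, 0.88 for Gata2, 0.83 for S100a11, 0.80 for Gga1, 0.73 for Muc1, 0.64 for Hipk4, 1.68 for Mir297a-4. The values below 0 where both move were -1.13 for Cep85l, -0.99 for Rgs10, -0.97 for Mtx2, -0.89 for Prim2, -0.83 for Zfp810, -0.78 for Bcas2, -0.77 for Ubr7, -0.74 for Snx4. Those above 0 where both move were 0.96 for Krtap5-4, 0.91 for Cited2, 1.45 for Olfr1502.

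Within groups of 4 or 5 arrays, 6 of 162 sets of values (54 genes, 3 groups each) had 1 array far from the others, and chance marks about 1 in 20 such sets. Gtf3c6 was at 7.38 on Control+NAC 4, against 7.72 to 7.75 on the other 3. S100a11 was at 10.30 on DKO+NAC 4, against 9.98 to 10.03. Hspa5 was at 8.46 on the same array, against 8.10 to 8.14, and that array also had the highest Nras of its group. Krtap5-4 was at 5.87 on Control+NAC 2, against 5.46 to 5.53. Tfg was at 8.08 on DKO 3, against 8.68 to 8.89. Snord104 was at 10.18 on Control+NAC 3, against 10.61 to 10.69.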

How the results depend on the processing

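All 53 called genes named here kept their direction in the 1695 values that up to 32 alternatives each gave, of which 1013 were also called and 682 were not. Kept direction is a description, because the alternatives reuse arrays on which the genes were called. The settings that moved the count of called interaction genes by over 1.5 times follow, in the order all, DKO moves, Control moves, both move where these moved too. With the 16 arrays alone, which leave fewer arrays to estimate the spread, all 4 counts were 0, and 550 genes differed without NAC. The same fit called 2185 NAC changes in DKO and 2435 in Control. With NAC arrays of shared code starts, which leaves out DKO+NAC 1 and DKO+NAC 2, they were 3, 1, 1 and 1, and 1199 genes changed in DKO. With small RNA as a covariate they were 13, 3, 4 and 6, and 183 genes differed without NAC. With Xist as a covariate all genes came to 57, DKO moves to 20 and both move to 6. With the code start as a random block (correlation 0.121) they were 50 in all, 21 where Control moves and 7 where both move. Centring on array medians gave 169, 63 and 92, of which 13.6% were higher against 30.2% before, with 1 gene called with NAC. Array weights gave 136, 54 and 68, and 1 gene with NAC. Leaving out the dimmest 40% gave 53 where DKO moves and 21 where both move. Muscle covariates gave 0 where both move, 2 where neither does and 1777 NAC changes in DKO. Classes by size gave 19 where DKO moves and 33 where both move. At 1.5-fold or more they were 19, 26, 0 and 37 in the classes, with 766 NAC changes in DKO, 1026 in Control, 819 in single knockouts and 349 differences without NAC. Added after seeing the data, leaving out DKO 1 and DKO 3 gave 191, 86, 79 and 26. Xist-high arrays alone gave 17, 16, 0, 0 and 1 where neither moves, with 0 NAC changes in Control and 178 differences without NAC, Control then being 1 array assumed to vary like the others. Most genes called on Xist-high arrays alone were not among the 86, so they are not a remaining part of that list. The cause of these shifts in the counts was not tested.

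Leaving out 1 array at a time gave ranges of 15 to 148 for the interaction, 7 to 76 where DKO moves, 3 to 57 where Control moves, 2 to 16 where both move, 0 to 14 for DKO against Control with NAC, 321 to 891 without NAC, 2045 to 2838 for NAC in DKO, 1319 to 3204 in Control and 4296 to 4517 in single knockouts. The highest of the counts with NAC came without Control+NAC 2, and the lowest without NAC came without Control 2. Same-numbered arrays of different groups correlated at 0.048 on average over 21 pairs, 8 of them over 0.1, so the numbers were not taken to pair the 4 groups of the interaction. With the replicate block 61 genes were called, 43 of them among the 86, with 570 genes differing between DKO and Control without NAC and 1 with it.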
